A study of Danio rerio with 9 samples.

Results

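The comparison described here sets entpd5a+ cells against double-positive cells of the zebrafish notochord sheath, 2 populations that were both sorted as positive for entpd5a and differed in col9a2. The libraries were chosen by their titles, which gave 3 entpd5a+ and 3 double-positive libraries of the 9 in the series, and all genes were compared. The remaining 3 libraries were of col9a2+ cells. All 9 came from fish of strain EK at 13 days after fertilization, and RNA was sequenced from cells sorted by fluorescence. The genotype label reads wild type for every library although the design text speaks of transgenic animals, and neither names the transgenes. The labels do not say what a replicate was (an animal, a pool or a repeated sort). The spread behind each p value is therefore that between libraries and may be technical. The study is about how the segmented sheath patterns the spine. For this pair the question is which cells carried a sheath transcriptome, and which carried transcripts of bone or connective tissue outside the notochord. Every population was described by the submitters as notochord sheath, so the defining markers were checked first.

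The notochord is the rod at the axis of the embryo. Its vacuolated core gives stiffness, and an epithelial sheath surrounds the core and secretes a thick matrix. In bony fish the sheath divides into alternating domains. In some of them sheath cells stop expressing cartilage-like genes such as col9a2, which encodes a collagen IX chain, and begin to express entpd5a. Entpd5 is a secreted nucleotidase that releases phosphate and that zebrafish need to mineralize bone, and the entpd5a domains mineralize as rings that foreshadow the vertebral bodies. Osteoblasts, which arise from the sclerotome and settle on the outside of these rings, also express entpd5a. An entpd5a reporter alone therefore marks both mineralizing sheath cells and osteoblasts.

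Each library held between 39955994 and 81471212 counts over 32266 gene IDs, with 17850 to 21996 genes detected. Levels are given as CPM (counts scaled to a common library size with TMM factors), in the order of libraries 1, 2 and 3 with the double-positive libraries first, and are compared within a gene and not between genes. Gene symbols are those of a reference gene table, which writes many zebrafish genes in the capitals of their human counterpart, and an Ensembl ID follows where several genes share a symbol. Differences are log2 values of entpd5a+ minus double-positive ± standard error, with p adjusted by Benjamini-Hochberg over the 19039 genes tested by the edgeR quasi-likelihood test. The standard error was derived from that test, as the absolute difference divided by the square root of its F statistic. It is only approximate where a population held few or no counts. Double-positive library 3 and entpd5a+ libraries 2 and 3 were deeper and held the heat shock gene hsp70l at 17960.6 CPM or more, against 908.9 CPM or less in the other 3 libraries of this pair. Double-positive library 1 also held the endothelial transcripts kdrl and cdh5 at 62.0 and 67.3 CPM, and no other library of the pair held either above 3.92 CPM. Entpd5a+ library 1 stood apart in cartilage transcripts.

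The test called 1240 genes, which is 6.51% of those tested. Of these, 583 (3.06%) were higher and 657 (3.45%) lower in entpd5a+ cells. DESeq2 called 1764 genes higher and 1110 lower, so the share of higher genes among those called was 47.02% with edgeR and 61.38% with DESeq2. At an unadjusted p under 0.05 there were 3944 of the 19039 genes tested, both directions together. The counts of list members below are to be read beside these counts and shares of all genes. Some genes belong to several lists, so the counts of different lists are not separate results. The median log2 difference of all genes tested was 0.07. The smallest called difference was 1.03 and the median called difference 2.86 in absolute log2 value. In 26.1% of all genes the ranges of the 2 populations were separate (14.3% with entpd5a+ higher, 11.8% with entpd5a+ lower), as they were in every called gene. The count was 525 without entpd5a+ library 2 and 551 without double-positive library 2, and between 958 and 1064 without any other single library. In bulk libraries fewer cells of a type and less of an RNA per cell cannot be told apart, which applies to every difference below.

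The sort genes differed in the direction of the gates for col9a2, without passing the test. COL9A2 stood at 811, 1580.0 and 1426 CPM in the double-positive libraries and at 429, 73.1 and 64.7 CPM in the entpd5a+ libraries. The groups did not overlap, although entpd5a+ library 1 lay well above the other two, and the difference of -2.75 ± 0.77 (adjusted p = 0.0683) did not pass the test. COL9A2 differed by -4.21 (adjusted p = 0.0104) without entpd5a+ library 1. ENTPD5 (ENSDARG00000053481) stood at 10369.8, 18679 and 13084 CPM in the double-positive and 5678, 3955 and 3142 CPM in the entpd5a+ libraries. Every double-positive library thus lay above every entpd5a+ library, 3.30-fold on average, with a difference of -1.72 ± 0.58 (adjusted p = 0.122). The separate gene entpd5b stood at 13.8, 12.5 and 11.2 CPM and 22.7, 6.44 and 12.8 CPM, with overlapping groups. In the 3 col9a2+ libraries ENTPD5 lay at 129 to 452 CPM. COL9A2 lay there at 7738 to 11560 CPM, far above every double-positive library.

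Many sheath and notochord genes were lower in entpd5a+ cells. Of 25 genes of this list found in the files 24 passed the count filter, of which 11 fell and 1 rose, with a median difference of -2.29 beside 0.07 for all genes. DESeq2 called 1 higher and 16 lower. The list holds both transcription factors of notochord identity and the structural proteins of the sheath. Calymmin (cmn), a glycine-rich protein of the zebrafish sheath matrix, stood at 5054, 7715 and 7460.0 CPM in the double-positive libraries and at 225, 154 and 336 CPM in the entpd5a+ libraries. All double-positive libraries lay far above all entpd5a+ libraries, and cmn fell by 4.82 ± 0.58 (adjusted p = 0.00326). The collagen VIII gene col8a1a, whose loss deforms the zebrafish notochord, stood at 8508, 18068 and 19121 CPM and 443, 689.7 and 1077 CPM and fell by 4.37 ± 0.75 (adjusted p = 0.0103). The lysyl oxidase gene loxl5b, whose product crosslinks collagen and elastin, stood at 2749.7, 4818 and 3622 CPM and 116, 133 and 328 CPM and fell by 4.28 ± 0.65 (adjusted p = 0.00658). In the col9a2+ libraries loxl5b lay at 57.3 to 160.1 CPM and col8a1a at 142 to 676 CPM, in the range of the entpd5a+ libraries or below it. The notochord granular surface gene ngs, an intermediate filament gene, went from 189, 348 and 495 to 68.5, 60.6 and 64.1 CPM and fell by 2.42 ± 0.45 (adjusted p = 0.0129). SULF1, which encodes an extracellular sulfatase that trims heparan sulfate, went from 182, 241 and 223 to 54.1, 61.0 and 78.3 CPM and fell by 1.74 ± 0.36 (adjusted p = 0.0198). The calls of col8a1a and ngs were lost without entpd5a+ library 2 (adjusted p up to 0.0609), that of SULF1 without entpd5a+ library 1 or 2 or double-positive library 2 (adjusted p up to 0.0827). loxl5b differed by -4.92 without entpd5a+ library 3. In the sheath list the number of falls became 5 without entpd5a+ library 2 and 7 without double-positive library 2.

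**Figure D1:**
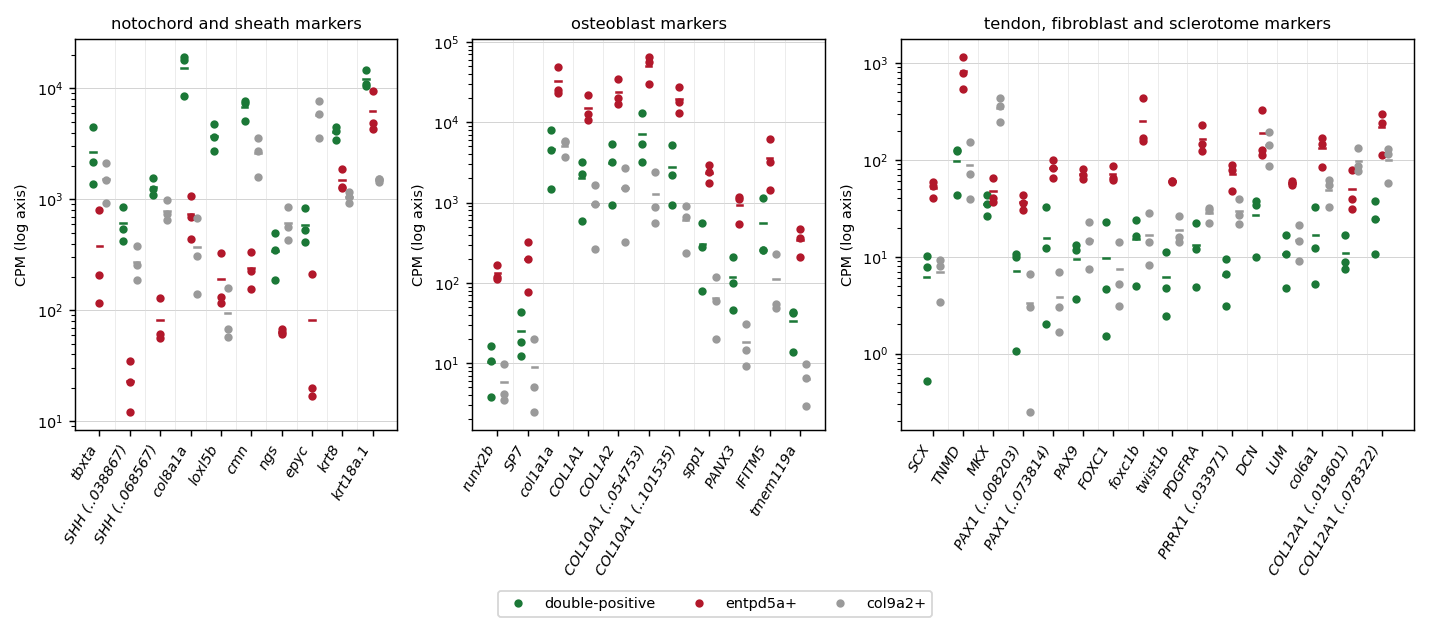
Levels in CPM (log axis) of notochord and sheath, osteoblast, and tendon, fibroblast and sclerotome markers in each library, for markers with a mean of at least 20 CPM in the double-positive or entpd5a+ libraries. Points are libraries (green double-positive, red entpd5a+, grey col9a2+) and bars are means of 3 libraries. The double-positive libraries lie above the entpd5a+ libraries for cmn, loxl5b and col8a1a, and below them for runx2b, TNMD and PDGFRA.

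Transcription factor genes of the notochord were lower as well. TBXT, a T-box factor of the brachyury family, stood at 97.8, 186 and 279 CPM in the double-positive libraries and at 9.77, 16.6 and 19.2 CPM in the entpd5a+ libraries, and fell by 3.62 ± 0.54 (adjusted p = 0.00635). Its paralog tbxta stood at 1389, 2161 and 4465 CPM and 115, 209 and 805 CPM. The groups did not overlap, but library 3 was the highest of both, and the difference was -2.83 ± 0.79 (adjusted p = 0.0672). The forkhead gene FOXA1 fell by 2.74 ± 0.66 (adjusted p = 0.0377) and foxa3 fell by 2.17 ± 0.54 (adjusted p = 0.0415), while the floor plate and notochord gene FOXA2 differed by -3.16 ± 0.98 (adjusted p = 0.0939). The early notochord factor noto had no count in any of the 6 libraries. The keratin gene krt18b was the only called rise of the list. It stood at 64.7, 26.8 and 61.1 CPM in the double-positive and 259, 257 and 484 CPM in the entpd5a+ libraries, without overlap, and rose by 2.71 ± 0.48 (adjusted p = 0.0114). The other simple keratins krt8 and krt18a.1 differed by -1.44 ± 0.40 (adjusted p = 0.0651) and -0.95 ± 0.48 (adjusted p = 0.306). The entpd5a+ libraries still held krt8 at 1271, 1306 and 1868 CPM and krt18a.1 at 4348, 4862 and 9559.5 CPM. The sheath marker emilin3a stood at 0.0447, 0.312 and 0 CPM in double-positive and 2.57, 0.786 and 0.44 CPM in entpd5a+ libraries. Its groups did not overlap, and its difference of 3.47 ± 1.48 (adjusted p = 0.22) did not pass the test. FBN2 and wt1b overlapped and differed by 1.15 and 0.61. The calls of FOXA1 and foxa3 were lost without entpd5a+ library 1 or 2 or double-positive library 2 or 3 (adjusted p up to 0.15). tbxta differed by -4.04 (adjusted p = 0.0194) without entpd5a+ library 3 and -2.24 without double-positive library 3, FOXA1 by -3.62 without entpd5a+ library 3 and -2.14 without double-positive library 3, FOXA2 by -4.07 without entpd5a+ library 3 and -1.82 without double-positive library 3.

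Summed over 12 notochord and sheath markers, the double-positive libraries held 34982, 55529 and 51492 CPM and the entpd5a+ libraries 6884, 7505 and 14216 CPM. Every double-positive library was above every entpd5a+ library, and entpd5a+ library 3 was the highest of its group. For the 10 markers with a mean of at least 20 CPM in double-positive cells, the median level in the entpd5a+ libraries was 4.53%, 4.45% and 9.34% of the double-positive mean. Choosing markers by their double-positive level favours low percentages. It left out noto and emilin3a, and emilin3a averaged 0.119 CPM in the double-positive and 1.265 CPM in the entpd5a+ libraries. The keratin genes krt8 and krt18a.1, which did not pass the test, stood at 37.0% and 51.6% of the double-positive mean. The col9a2+ libraries held 12667, 18337 and 12696 CPM of the summed markers, so the sum of entpd5a+ library 3 lay within their range. The make-up of these sums differed. In entpd5a+ library 3 krt18a.1 and krt8 held 9559.5 and 1867.5 CPM, against 1445.5 to 1537.4 and 923 to 1165.3 CPM in the col9a2+ libraries. The col9a2+ libraries held epyc and cmn at 3610.4 to 7653.6 and 1600.9 to 3562.1 CPM, against 16.8 and 335.6 CPM in entpd5a+ library 3. Which cells carried the markers cannot be told from sorted bulk RNA.

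Bone genes rose in entpd5a+ cells, and none fell. Of 38 in the files 36 were tested and 15 rose with edgeR, beside 3.06% of all genes. At an unadjusted p under 0.05 29 were higher and none lower, and DESeq2 called 28 higher and none lower. The median difference was 2.83. The transcription factor genes DLX3 and runx2b had the smallest adjusted p. DLX3, a homeobox factor of skeletal and dental tissues, stood at 46.9, 16.9 and 40.8 CPM in the double-positive and 298, 273 and 195 CPM in the entpd5a+ libraries, and rose by 2.87 ± 0.45 (adjusted p = 0.0073). The runt factor gene runx2b, needed for osteoblast formation in vertebrates, stood at 16.4, 3.82 and 10.7 CPM and 113, 166 and 119.9 CPM and rose by 3.69 ± 0.60 (adjusted p = 0.00794). In both genes double-positive library 2 was the lowest of all 6, and no double-positive library reached the entpd5a+ range. SP7, the osterix factor of maturing osteoblasts, showed the same order, at 43.9, 12.4 and 18.3 CPM and 323, 199 and 76.8 CPM. Its groups did not overlap, but entpd5a+ library 3 lay closer to the double-positive libraries, and the difference of 3.00 ± 0.85 (adjusted p = 0.0693) did not pass the test. The homeobox gene DLX5 rose by 2.86 ± 0.64 (adjusted p = 0.0286). CREB3L1, an endoplasmic reticulum stress factor that promotes collagen secretion, rose by 1.87 ± 0.33 (adjusted p = 0.011). CREB3L1 lay higher still in the col9a2+ libraries, at 205.5 CPM on average against 151.6 CPM in the entpd5a+ libraries. For DLX3, runx2b and DLX5 the col9a2+ means were 25.2, 5.8 and 4.1 CPM, against 255.5, 133.1 and 103.1 CPM. RUNX2, the other runt gene of the list, overlapped between the populations and differed by 0.83 ± 0.52 (adjusted p = 0.429). The call of DLX5 was lost without entpd5a+ library 1 or 2 or double-positive library 2 or 3 (adjusted p up to 0.0918). SP7 differed by 3.69 without double-positive library 1.

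Osteoblast membrane and matrix genes rose in part. The osteoblast membrane protein gene tmem119a stood at 42.3, 13.9 and 44.0 CPM in double-positive and 358, 468 and 207 CPM in entpd5a+ libraries and rose by 3.37 ± 0.60 (adjusted p = 0.0118). The secretory calcium-binding phosphoprotein gene scpp1 stood at 126, 38.4 and 77.7 CPM and 699, 763 and 792 CPM and rose by 3.22 ± 0.55 (adjusted p = 0.0103). Its entpd5a+ libraries lay close together, and each exceeded every double-positive library. The channel gene PANX3 stood at 212, 46.1 and 101 CPM and 1163, 1108 and 544 CPM and rose by 2.97 ± 0.67 (adjusted p = 0.0302). PTH1R, the receptor of parathyroid hormone, rose by 2.55 ± 0.52 (adjusted p = 0.0195). POSTN (ENSDARG00000104267), which encodes periostin, rose by 2.42 ± 0.55 (adjusted p = 0.029). In the col9a2+ libraries this POSTN gene averaged 128.7 CPM, against 141 CPM in the entpd5a+ libraries. PTH1R averaged 2.51 CPM there, against 24.7 CPM. Some other genes of the bone list showed no clear direction. POSTN (ENSDARG00000043806), SPARC and bglapl overlapped between the populations and differed by -0.04 ± 1.63, 0.31 ± 0.52 and 0.20 ± 1.45. Each error was larger than its difference, so a change in either direction is not excluded. For bglapl, double-positive library 1 was the highest of all, at 262.7 CPM. The marker bglap did not pass the count filter and stayed at 0.225 CPM or less. Of the collagen I and X genes 1 passed the test. The collagen I gene col1a1a stood at 7938, 1469 and 4522 CPM in the double-positive libraries and at 25362, 49438 and 23143 CPM in the entpd5a+ libraries, and rose by 2.81 ± 0.71 (adjusted p = 0.0451). The other collagen I genes COL1A1 and COL1A2 differed by 2.92 ± 0.83 (adjusted p = 0.0712) and 2.91 ± 0.89 (adjusted p = 0.0895), and the 2 collagen X genes by 2.80 ± 0.77 (adjusted p = 0.0631) for COL10A1 (ENSDARG00000101535) and 2.81 ± 0.79 (adjusted p = 0.0692) for COL10A1 (ENSDARG00000054753). None of these 4 overlapped between the populations and none passed the test. The same held for osteopontin (spp1), at 559, 78.8 and 277 CPM and 1740.5, 2376 and 2974 CPM with a difference of 2.95 ± 0.80 (adjusted p = 0.0603). It also held for IFITM5, a membrane protein of mineralizing osteoblasts, at 1154, 256 and 253 CPM and 6164, 3187 and 1414 CPM with a difference of 2.69 ± 0.90 (adjusted p = 0.121). The call of PANX3 was lost without entpd5a+ library 1 or 2 or double-positive library 2 or 3 (adjusted p up to 0.0923), that of PTH1R without entpd5a+ library 2 or double-positive library 2 or 3 (adjusted p up to 0.0854), that of POSTN (ENSDARG00000104267) without entpd5a+ library 1 or 2 or double-positive library 1 or 2 (adjusted p up to 0.101). The call of col1a1a was lost without entpd5a+ library 1, 2 or 3 or double-positive library 2 or 3 (adjusted p up to 0.129). PANX3 differed by 3.67 without double-positive library 1, POSTN (ENSDARG00000104267) by 3.24 without double-positive library 3, col1a1a by 3.44 without double-positive library 1. COL1A2 differed by 3.51 without double-positive library 1, COL10A1 (ENSDARG00000101535) by 3.63 (adjusted p = 0.0479) without double-positive library 1, COL10A1 (ENSDARG00000054753) by 3.55 without double-positive library 1. spp1 differed by 3.73 without double-positive library 1, IFITM5 by 2.06 without entpd5a+ library 1 and 3.81 without double-positive library 1. In the bone list the number of rises became 6 without entpd5a+ library 2 and 6 without double-positive library 2.

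The double-positive libraries were not alike in these transcripts. Summed over 14 osteoblast markers they held 36588, 7557 and 18269 CPM, against 140538, 197400.4 and 108761 CPM in the entpd5a+ libraries. Double-positive library 1 held the most and library 2 the least of its group, and none reached the lowest entpd5a+ library. Collagen I and X genes made up most of the mean entpd5a+ sum of 148900 CPM. On average col1a1a, COL1A1 and COL1A2 held 32647.8, 15121.7 and 23747.1 CPM, and the COL10A1 genes 50324.5 and 19461.8 CPM. For the 11 osteoblast markers with at least 20 CPM on average in entpd5a+ cells, the median level in the double-positive libraries was 22.6%, 4.50% and 11.3% of the entpd5a+ mean. For 16 tendon, fibroblast and sclerotome markers chosen in the same way it was 18.7%, 4.24% and 15.4%. Both marker groups were thus lowest in double-positive library 2. The markers were chosen by their level in entpd5a+ cells, which favours low percentages. Left out of the osteoblast group were RUNX2, ALPL and bglap, at 56.35%, 32.06% and 97.28% of the entpd5a+ mean. Without double-positive library 1 the median difference of the bone list was 3.51, without library 2 it was 2.48. The part of this spread in single differences was not tested. Within the deeper libraries the median of the bone list was 2.95 and within the shallower libraries 3.01, and the medians of the notochord and sheath list were -2.56 and -2.05.

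**Figure D2:**
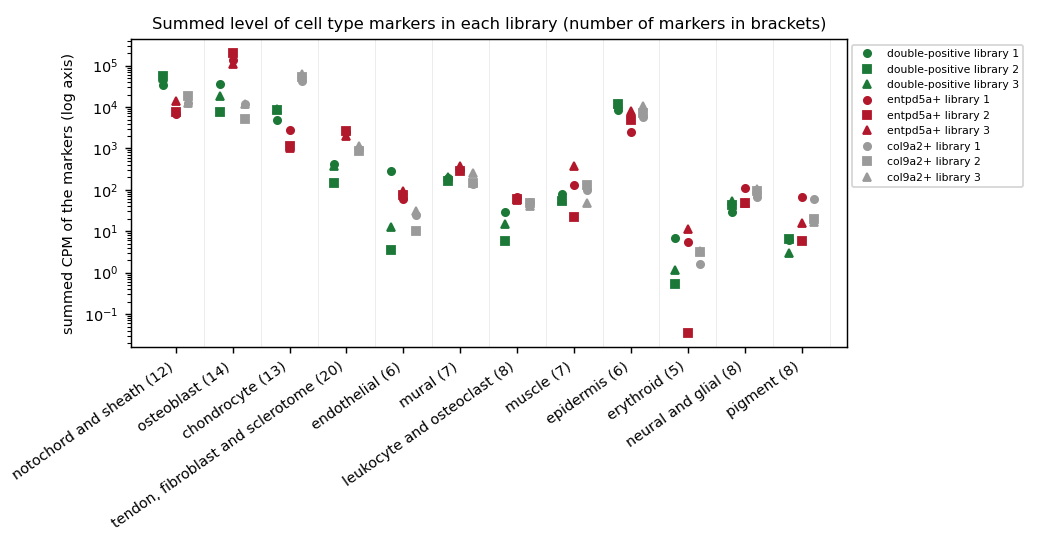
Summed level in CPM (log axis) of the markers of 12 cell types in each library, with the number of markers in brackets. Colours mark the population and symbols the library number. The sheath markers are highest in the double-positive libraries, the osteoblast and tendon, fibroblast and sclerotome markers are highest in the entpd5a+ libraries, and the endothelial markers stand out in double-positive library 1.

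Genes of mineral and phosphate handling divided between the populations. Of 34 tested 7 rose and 4 fell in entpd5a+ cells, with a median of 1.33. DESeq2 called 10 higher and 5 lower. Those that rose include enzymes of osteoblast mineralization. PHEX, a peptidase that removes inhibitors of mineral and controls phosphate, stood at 243, 63.6 and 159.6 CPM in double-positive and 1505, 1965 and 1037 CPM in entpd5a+ libraries, and rose by 3.27 ± 0.60 (adjusted p = 0.0126). PHOSPHO1, a phosphatase that works inside matrix vesicles, stood at 28.1, 12.1 and 44.8 CPM and 263, 463 and 114 CPM and rose by 3.30 ± 0.65 (adjusted p = 0.0172). SMPD3, a neutral sphingomyelinase needed for bone mineral in mice, stood at 54.4, 16.2 and 77.3 CPM and 339.7, 804 and 235 CPM and rose by 3.22 ± 0.75 (adjusted p = 0.033). In each of these 3 genes entpd5a+ library 2 was the highest and entpd5a+ library 3 the lowest of its group, without overlap with the double-positive libraries. The sodium-calcium exchanger gene slc8a4b rose by 2.90 ± 0.58 (adjusted p = 0.0179) and the secretory pathway pseudokinase gene FAM20A rose by 3.05 ± 0.64 (adjusted p = 0.0222). The calls of PHOSPHO1 and SMPD3 were lost without entpd5a+ library 2 or double-positive library 1 or 2 (adjusted p up to 0.101), that of slc8a4b without entpd5a+ library 2 or double-positive library 2 (adjusted p up to 0.0678), that of FAM20A without entpd5a+ library 2 or 3 or double-positive library 1 or 2 (adjusted p up to 0.0753). SMPD3 differed by 2.54 without entpd5a+ library 2.

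The genes of this list that fell include known brakes on mineral and a phosphate transporter. Matrix Gla protein (mgp), an inhibitor of calcification, stood at 1027, 1545 and 505 CPM in the double-positive libraries and at 108, 60.2 and 104 CPM in the entpd5a+ libraries, and fell by 3.50 ± 0.61 (adjusted p = 0.011). The gene enpp1, whose enzyme makes the mineral inhibitor pyrophosphate, stood at 924, 1381 and 1747 CPM and 219, 519 and 427 CPM and fell by 1.80 ± 0.45 (adjusted p = 0.0451). SLC20A1 (ENSDARG00000020114), a sodium-phosphate cotransporter, stood at 862, 1575 and 2219.8 CPM and 102, 148 and 325 CPM and fell by 3.02 ± 0.66 (adjusted p = 0.0257). All 3 double-positive libraries lay above all entpd5a+ libraries in these genes, and in the col9a2+ libraries SLC20A1 (ENSDARG00000020114) lay at 43.8 to 168 CPM. ANXA6, a calcium-dependent membrane-binding annexin, fell by 3.24 ± 0.46 (adjusted p = 0.00514). In the opposite direction ANKH (ENSDARG00000014969), which exports pyrophosphate and nucleotides, rose by 2.49 ± 0.62 (adjusted p = 0.0422). The alkaline phosphatase gene ALPL stood at 9.19, 0.65 and 3.33 CPM and 17.97, 15.8 and 7.36 CPM, overlapped between the populations and differed by 1.64 ± 0.81 (adjusted p = 0.291). The call of mgp was lost without entpd5a+ library 2 (adjusted p = 0.0517), that of enpp1 without any 1 of the 6 libraries (adjusted p up to 0.119), that of SLC20A1 (ENSDARG00000020114) without entpd5a+ library 1 or 2 or double-positive library 2 or 3 (adjusted p up to 0.107). The call of ANKH (ENSDARG00000014969) was lost without entpd5a+ library 2 or 3 or double-positive library 1, 2 or 3 (adjusted p up to 0.125). SLC20A1 (ENSDARG00000020114) differed by -3.64 without entpd5a+ library 3, ALPL by 2.77 without double-positive library 1. In this list the number of rises became 1 without entpd5a+ library 2, 4 without double-positive library 1 and 1 without double-positive library 2, and the number of falls became 2 without entpd5a+ library 1, 1 without entpd5a+ library 2, 2 without double-positive library 2 and 2 without double-positive library 3.

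Many transcripts of connective tissue and sclerotome rose in entpd5a+ cells. Of 47 tendon, fibroblast and sclerotome genes in the files 46 were tested, 22 rose and none fell with edgeR, with a median of 2.91. At an unadjusted p under 0.05 35 were higher and 2 lower, and DESeq2 called 33 higher and 1 lower. The sclerotome gives rise to osteoblasts, tendon cells and fibroblasts around the notochord. PAX9, a paired-box factor of the sclerotome, stood at 13.2, 3.64 and 11.8 CPM in double-positive and 64.0, 79.8 and 69.1 CPM in entpd5a+ libraries, and rose by 2.89 ± 0.55 (adjusted p = 0.0145). The basic helix-loop-helix gene twist1b, a factor of mesenchyme, stood at 11.2, 2.47 and 4.79 CPM and 59.8, 58.7 and 60.7 CPM and rose by 3.28 ± 0.54 (adjusted p = 0.00877). The entpd5a+ libraries were nearly equal in both genes, and the double-positive libraries lay below them throughout. PDGFRA, a growth factor receptor of fibroblasts, stood at 22.5, 4.89 and 12.02 CPM and 147, 227 and 123 CPM and rose by 3.65 ± 0.55 (adjusted p = 0.00635). The mesenchymal homeobox genes PRRX1 (ENSDARG00000042027) and PRRX1 (ENSDARG00000033971) rose by 3.38 (adjusted p = 0.00326) and 3.48 (adjusted p = 0.00473). The col9a2+ libraries held these 2 genes at 28.8 and 29.5 CPM on average, against 17.5 and 71.8 CPM in the entpd5a+ libraries. For PAX9, twist1b and PDGFRA the col9a2+ means were 14.9, 18.8 and 28.2 CPM, against 71.0, 59.8 and 165.5 CPM. The forkhead gene foxc1b, active in sclerotome, rose by 4.06 ± 0.73 (adjusted p = 0.0121), and twist2 rose by 3.199 ± 0.66 (adjusted p = 0.0199). MEOX1, a somite and sclerotome homeobox gene, rose by 3.97 ± 0.85 (adjusted p = 0.0231), and TBX18, a T-box factor of somites, rose by 3.41 ± 0.73 (adjusted p = 0.0233). The call of twist2 was lost without entpd5a+ library 2 (adjusted p = 0.0552), that of MEOX1 without entpd5a+ library 3 or double-positive library 1, 2 or 3 (adjusted p up to 0.0942), that of TBX18 without entpd5a+ library 2 or double-positive library 1 or 2 (adjusted p up to 0.0846). twist1b differed by 4.03 without double-positive library 1, PDGFRA by 4.29 without double-positive library 1, foxc1b by 3.40 without entpd5a+ library 3. MEOX1 differed by 3.14 without entpd5a+ library 3, TBX18 by 2.76 without entpd5a+ library 2. Among all 46 the number of rises became 11 without entpd5a+ library 2 and 13 without double-positive library 2.

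Of the tendon genes themselves TNMD passed the test. TNMD, which encodes the tendon membrane protein tenomodulin, stood at 124, 43.2 and 127 CPM in the double-positive libraries and at 792, 1146 and 535 CPM in the entpd5a+ libraries, and rose by 3.07 ± 0.63 (adjusted p = 0.0196). Every entpd5a+ library exceeded every double-positive library. SCX, the scleraxis factor of tendon progenitors, stood at 10.2, 0.52 and 7.86 CPM and 40.6, 53.3 and 58.7 CPM, without overlap, and its difference of 3.03 ± 0.84 (adjusted p = 0.0652) did not pass the test. The tendon homeobox gene MKX stood at 26.6, 34.9 and 43.6 CPM and 65.2, 40.8 and 36.5 CPM, overlapped and differed by 0.44 ± 0.36 (adjusted p = 0.574). In the col9a2+ libraries MKX lay at 246 to 431 CPM. The 2 PAX1 genes differed by 2.34 ± 1.01 (adjusted p = 0.223) for PAX1 (ENSDARG00000008203) and 2.40 ± 0.84 (adjusted p = 0.134) for PAX1 (ENSDARG00000073814), with the highest double-positive levels in library 1 or 3. The call of TNMD was lost without entpd5a+ library 2 or double-positive library 2 (adjusted p up to 0.0698). SCX differed by 2.50 (adjusted p = 0.0388) without double-positive library 2, PAX1 (ENSDARG00000073814) by 3.51 without double-positive library 1.

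Collagen chain genes changed in both directions. Of 52 collagen chain genes tested 12 rose and 4 fell, with a median of 2.18. DESeq2 called 24 higher and 8 lower. The fibrillar collagen V chains, which seed collagen I fibrils, were among the rises, as COL5A1 stood at 38.8, 18.4 and 63.2 CPM and 558, 409.5 and 270.0 CPM and rose by 3.36 ± 0.62 (adjusted p = 0.0127). Its partner col5a2b stood at 429, 122 and 303 CPM and 2747, 3893 and 1491 CPM and rose by 3.25 ± 0.66 (adjusted p = 0.0183). The 3 chains of the beaded collagen VI of connective tissue rose together. COL6A2 stood at 12.2, 3.72 and 8.65 CPM and 149, 124 and 77.3 CPM and rose by 3.83 ± 0.52 (adjusted p = 0.00439), col6a1 rose by 2.98 ± 0.63 (adjusted p = 0.0218) and COL6A3 rose by 1.90 ± 0.47 (adjusted p = 0.0424). The fibril-associated collagen XII genes COL12A1 (ENSDARG00000078322) and COL12A1 (ENSDARG00000019601) rose by 3.16 (adjusted p = 0.0125) and 2.16 (adjusted p = 0.0233). They averaged 100.5 and 98.3 CPM in the col9a2+ libraries, against 216.5 and 49.5 CPM in the entpd5a+ libraries. The rises also include the basement membrane collagen gene col18a1a, by 3.48 (adjusted p = 0.0299). Besides col8a1a, the falls were the basement membrane chains col4a5 and col4a6 and the transmembrane collagen of hemidesmosomes, col17a1b. The last stood at 188, 81.9 and 142 CPM in the double-positive and 5.32, 22.8 and 17.1 CPM in the entpd5a+ libraries and fell by 3.19 ± 0.56 (adjusted p = 0.0114). The call of col5a2b was lost without entpd5a+ library 2 or double-positive library 2 (adjusted p up to 0.0651), that of col6a1 without entpd5a+ library 2 or double-positive library 3 (adjusted p up to 0.0626), that of COL6A3 without entpd5a+ library 1 or 2 or double-positive library 1, 2 or 3 (adjusted p up to 0.135). The call of COL12A1 (ENSDARG00000019601) was lost without entpd5a+ library 1 or 2 or double-positive library 1 or 2 (adjusted p up to 0.0997), that of col18a1a without entpd5a+ library 2 or double-positive library 1 or 2 (adjusted p up to 0.107). col6a1 differed by 3.91 without double-positive library 1, col18a1a by 2.70 without entpd5a+ library 2 and 4.69 without double-positive library 3. For collagen chains the number of rises became 3 without entpd5a+ library 2 and 5 without double-positive library 2, and the number of falls became 9 without entpd5a+ library 1.

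**Figure D3:**
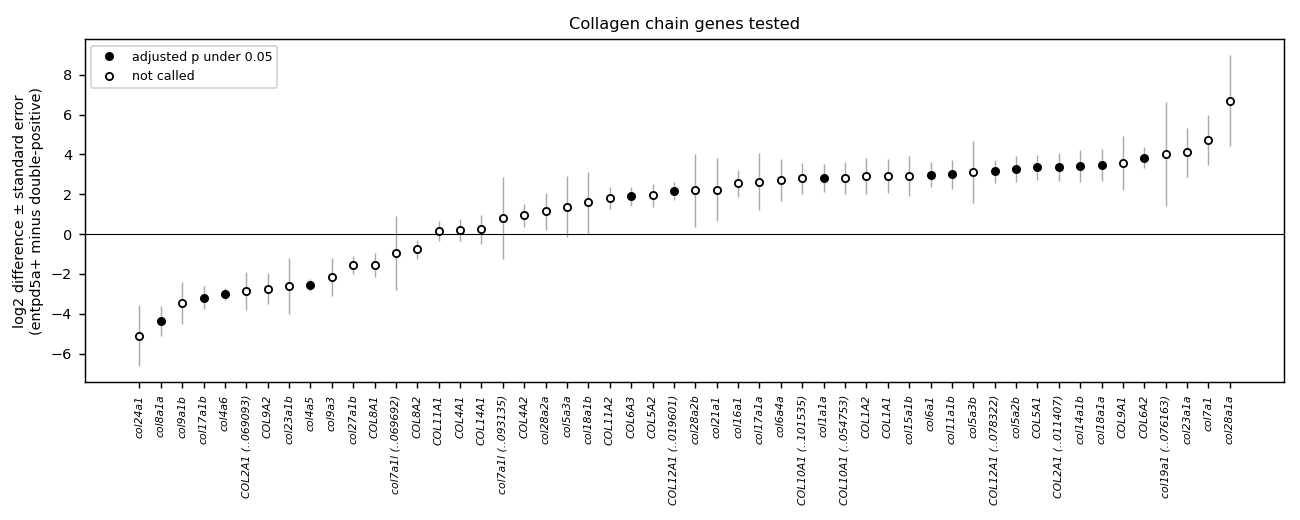
Log2 difference between entpd5a+ and double-positive cells of the 52 collagen chain genes tested, in order of the difference, with bars of 1 standard error and filled points for an adjusted p under 0.05. Filled points lie on both sides of 0, with the falls of col8a1a, col17a1b, col4a6 and col4a5 to the left and 12 rises to the right.

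Cartilage genes split within the list. Of 32 tested 6 rose and 9 fell in entpd5a+ cells, and the median was -0.11. DESeq2 called 11 higher and 12 lower. The matrix adaptor gene MATN3 (ENSDARG00000069245) stood at 6867, 13052 and 9911 CPM in the double-positive and 508, 211 and 638 CPM in the entpd5a+ libraries and fell by 4.46 ± 0.64 (adjusted p = 0.00527). The small proteoglycan gene snorc stood at 3391, 4965 and 2424 CPM and 196, 133 and 199 CPM and fell by 4.35 ± 0.53 (adjusted p = 0.00326). Chondroadherin (chad), which binds collagen and integrins, stood at 1113, 1628 and 1465 CPM and 159, 113 and 161 CPM and fell by 3.28 ± 0.44 (adjusted p = 0.00404). In each of these 3 the populations were far apart. The aggrecan genes acana and acanb fell by 3.45 (adjusted p = 0.0103) and 3.55 (adjusted p = 0.0118). Of the genes of the cartilage master factor, SOX9 (ENSDARG00000043923) fell by 2.03 (adjusted p = 0.0328). SOX9 (ENSDARG00000003293) overlapped between the populations and differed by -0.47 ± 0.50 (adjusted p = 0.68). The call of SOX9 (ENSDARG00000043923) was lost without entpd5a+ library 1 or 2 or double-positive library 1, 2 or 3 (adjusted p up to 0.0849). acanb differed by -4.63 without entpd5a+ library 1.

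Other cartilage genes were higher in entpd5a+ cells. MATN4, another matrilin, stood at 12.8, 6.71 and 25.5 CPM in the double-positive libraries and 177, 166 and 132 CPM in the entpd5a+ libraries and rose by 3.40 ± 0.48 (adjusted p = 0.00523). COL2A1 (ENSDARG00000011407), a collagen II gene, stood at 28.3, 5.099 and 45.2 CPM and 327, 312 and 179 CPM and rose by 3.38 ± 0.69 (adjusted p = 0.0189). Both genes lay higher still in the col9a2+ libraries, at 184 to 238 and 418 to 544 CPM. The other collagen II gene, COL2A1 (ENSDARG00000069093), stood at 1707, 3321 and 5144 CPM and 1143, 188 and 82.3 CPM. It went the opposite way with entpd5a+ library 1 far above the other two, and the difference was -2.85 ± 0.95 (adjusted p = 0.121). SOX6, a cofactor of SOX9 in cartilage, rose by 1.57 ± 0.34 (adjusted p = 0.0233), and the collagen XI gene col11a1b, whose product co-assembles with collagens II and V, rose by 3.00 ± 0.72 (adjusted p = 0.0371). Entpd5a+ library 1 also held the cartilage genes MATN1 and COL9A1 at 247 and 109.8 CPM, against 13.3 and 9.04 CPM or less in the other entpd5a+ libraries. Summed over 13 chondrocyte markers the entpd5a+ libraries held 2866, 1169 and 1005 CPM and the double-positive libraries 4941, 8314 and 9165 CPM. COL2A1 (ENSDARG00000069093), cnmd and chad averaged 3390.4, 2319.9 and 1402.1 CPM of the mean double-positive sum of 7473.2 CPM. The markers SOX6, COL2A1 (ENSDARG00000011407), MATN4, MATN1, COL9A1 and hapln1a had higher means in entpd5a+ cells. Of these, MATN1, COL9A1 and hapln1a did not pass the test. The call of COL2A1 (ENSDARG00000011407) was lost without entpd5a+ library 2 or double-positive library 1 (adjusted p up to 0.0568), that of SOX6 without entpd5a+ library 2 or double-positive library 1 or 2 (adjusted p up to 0.111), that of col11a1b without entpd5a+ library 1 or 2 or double-positive library 2 or 3 (adjusted p up to 0.122). MATN4 differed by 4.02 without double-positive library 3, COL2A1 (ENSDARG00000011407) by 4.03 without double-positive library 3, col11a1b by 3.73 without double-positive library 1. COL2A1 (ENSDARG00000069093) differed by -4.65 (adjusted p = 0.0158) without entpd5a+ library 1. Among cartilage genes the number of rises became 2 without entpd5a+ library 2 and 3 without double-positive library 2.

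The small leucine-rich proteoglycans, which bind collagen fibrils and set their width, also divided. Of 15 tested 6 rose and 2 fell, with a median of 2.71. DESeq2 called 10 higher and 3 lower. Asporin (ASPN), of periosteum and ligament, stood at 0, 1.33 and 7.86 CPM in the double-positive libraries and at 744, 151 and 212 CPM in the entpd5a+ libraries and rose by 6.90 ± 1.70 (adjusted p = 0.041). The double-positive libraries ranged from no count upward and stayed far below the entpd5a+ range. LUM (lumican) stood at 10.7, 4.81 and 16.7 CPM and 57.5, 55.4 and 60.9 CPM and rose by 2.43 ± 0.48 (adjusted p = 0.0174). BGN (ENSDARG00000002945), biglycan, rose by 2.71 (adjusted p = 0.0213), DCN, decorin, by 2.78 (adjusted p = 0.0276) and FMOD (ENSDARG00000044895), fibromodulin, by 2.91 (adjusted p = 0.0114). DCN and FMOD (ENSDARG00000044895) averaged 140.8 and 39.3 CPM in the col9a2+ libraries, against 187.2 and 29.5 CPM in the entpd5a+ libraries. LUM averaged 14.9 CPM in the col9a2+ libraries, against 57.9 CPM. Against them opticin (optc) stood at 45.5, 40.2 and 23.7 CPM in the double-positive and 0, 0.578 and 1.34 CPM in the entpd5a+ libraries and fell by 5.82 ± 1.16 (adjusted p = 0.0175). In the col9a2+ libraries optc did not exceed 0.235 CPM. The call of ASPN was lost without entpd5a+ library 1, 2 or 3 or double-positive library 2 (adjusted p up to 0.146), that of LUM without entpd5a+ library 2 or double-positive library 1 (adjusted p up to 0.0515), that of BGN (ENSDARG00000002945) without entpd5a+ library 2 or double-positive library 3 (adjusted p up to 0.0622). The call of DCN was lost without entpd5a+ library 1 or double-positive library 2 or 3 (adjusted p up to 0.0749), that of optc without entpd5a+ library 2 or double-positive library 2 (adjusted p up to 0.0768). ASPN differed by 5.88 without entpd5a+ library 1 and 9.13 without double-positive library 3, BGN (ENSDARG00000002945) by 3.35 without double-positive library 1, DCN by 2.12 without entpd5a+ library 1. optc differed by -6.89 without entpd5a+ library 3. For these proteoglycans the number of rises became 3 without entpd5a+ library 1 and 2 without entpd5a+ library 2.

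Enzymes that build and cut the matrix changed in both directions. Of 62 genes of procollagen processing and secretion 6 rose and 6 fell, and of 45 matrix proteases and inhibitors 7 rose and 5 fell. In the first list DESeq2 called 17 higher and 8 lower, and in the second DESeq2 called 13 higher and 5 lower. SERPINH1 (ENSDARG00000075954), the collagen chaperone of the endoplasmic reticulum, rose by 1.94 ± 0.31 (adjusted p = 0.00727). Among the crosslinking lysyl oxidases LOX rose and LOXL3 (ENSDARG00000076306) fell. LOX stood at 6.91, 2.68 and 9.61 CPM and 50.8, 37.4 and 42.9 CPM and rose by 2.77 ± 0.55 (adjusted p = 0.0169), whereas LOXL3 (ENSDARG00000076306) stood at 28.8, 33.1 and 49.0 CPM and 2.32, 0.786 and 1.67 CPM and fell by 4.54 ± 0.51 (adjusted p = 0.00326). P3H2, a prolyl 3-hydroxylase of basement membrane collagen, fell by 1.71 ± 0.31 (adjusted p = 0.0125). The gelatinase gene MMP2 stood at 67.3, 27.6 and 66.3 CPM in the double-positive and 740.2, 505 and 349.9 CPM in the entpd5a+ libraries and rose by 3.31 ± 0.47 (adjusted p = 0.00512). Its membrane-bound activator MMP14 (ENSDARG00000002235) rose by 2.03 ± 0.35 (adjusted p = 0.0103). The secreted serine protease HTRA1 (ENSDARG00000032831) stood at 1361, 1539 and 1855 CPM and 161, 211 and 285 CPM and fell by 2.86 ± 0.41 (adjusted p = 0.00513). The 2 HTRA3 genes went opposite ways, as HTRA3 (ENSDARG00000010925) rose by 4.09 ± 0.56 (adjusted p = 0.00465) and HTRA3 (ENSDARG00000052895) fell by 3.21 ± 0.60 (adjusted p = 0.0134). The call of MMP14 (ENSDARG00000002235) was lost without double-positive library 2 (adjusted p = 0.0528), that of HTRA3 (ENSDARG00000052895) without entpd5a+ library 2 (adjusted p = 0.0583). HTRA3 (ENSDARG00000010925) differed by 4.68 without double-positive library 3. Among the proteases the number of rises became 4 without entpd5a+ library 2 and 2 without double-positive library 2, and the number of falls became 1 without entpd5a+ library 2 and 2 without double-positive library 2.

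The sheath is an epithelium on a basement membrane, and several laminin, nidogen and collagen IV genes fell in entpd5a+ cells. Of 26 basement membrane genes 6 fell and 2 rose, although the median of the list was 0.76. DESeq2 called 5 higher and 6 lower. The laminin chain gene LAMA5 stood at 149.7, 149 and 126 CPM in the double-positive libraries and at 13.6, 13.8 and 8.42 CPM in the entpd5a+ libraries and fell by 3.57 ± 0.33 (adjusted p = 0.00248). LAMB2, which encodes a beta chain, stood at 221, 263 and 378 CPM and 22.8, 30.9 and 25.1 CPM and fell by 3.45 ± 0.35 (adjusted p = 0.00294). Nidogen (NID1, ENSDARG00000103129), which links laminin to collagen IV, fell by 3.49 ± 0.43 (adjusted p = 0.00333), and the collagen IV chains col4a6 and col4a5 fell by 3.00 (adjusted p = 0.00294) and 2.57 (adjusted p = 0.00326). These groups did not overlap, and each call was kept without each library in turn. The list also held rises, of the collagen XVIII gene col18a1a by 3.48 (adjusted p = 0.0299) and of NID2 by 2.01 (adjusted p = 0.0331). The call of col18a1a was lost without entpd5a+ library 2 or double-positive library 1 or 2 (adjusted p up to 0.107), that of NID2 without entpd5a+ library 1 or 2 or double-positive library 1 or 2 (adjusted p up to 0.124). col18a1a differed by 2.70 without entpd5a+ library 2 and 4.69 without double-positive library 3.

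Integrin and junction genes changed in both directions. Of 33 integrin and related genes 6 fell and 3 rose, and DESeq2 called 5 higher and 7 lower. ITGA1, a collagen and laminin receptor chain, stood at 149, 178 and 222 CPM in double-positive and 12.2, 17.7 and 24.0 CPM in entpd5a+ libraries and fell by 3.35 ± 0.44 (adjusted p = 0.00393). The hemidesmosome integrin chains itga6b and ITGB4 fell by 2.72 (adjusted p = 0.0133) and 1.94 (adjusted p = 0.0197). ITGA10, a collagen receptor chain of chondrocytes, went the other way, from 72.8, 12.7 and 66.1 to 392, 600.3 and 275 CPM, and rose by 3.06 ± 0.69 (adjusted p = 0.0297). Of 53 genes of junctions and polarity 8 rose and 5 fell, with a median of 0.70, and DESeq2 called 14 higher and 7 lower. The epithelial adhesion genes cdh1 and epcam were among the rises, by 2.81 (adjusted p = 0.0126) and 2.91 (adjusted p = 0.0337). The desmosome gene pkp3a stood at 650.5, 1158 and 1132 CPM and 59.6, 129.7 and 144 CPM and fell by 3.14 ± 0.48 (adjusted p = 0.00669), and the desmoplakin genes DSP (ENSDARG00000022309) and DSP (ENSDARG00000076673) fell by 2.68 (adjusted p = 0.00349) and 2.55 (adjusted p = 0.0108). The tight junction scaffold gene tjp1b fell by 1.77 (adjusted p = 0.00669). Cadherin genes changed in both directions. CDH2, the N-cadherin of the notochord, stood at 305, 371 and 460.4 CPM and 73.0, 89.1 and 119.8 CPM and fell by 2.01 ± 0.36 (adjusted p = 0.011), whereas the osteoblast cadherin CDH11 stood at 144, 51.6 and 144 CPM and 819.6, 1235 and 578 CPM and rose by 2.96 ± 0.64 (adjusted p = 0.024). The keratins krt94 and krt15 fell by 3.42 (adjusted p = 0.00557) and 3.65 (adjusted p = 0.00633). The calls of itga6b and CDH2 were lost without entpd5a+ library 2 (adjusted p up to 0.056), that of ITGB4 without entpd5a+ library 2 or 3 or double-positive library 2 (adjusted p up to 0.075), that of ITGA10 without entpd5a+ library 2 or double-positive library 1, 2 or 3 (adjusted p up to 0.0862). The call of CDH11 was lost without entpd5a+ library 2 or double-positive library 1 or 2 (adjusted p up to 0.0849), that of epcam without entpd5a+ library 2 or 3 or double-positive library 1 or 2 (adjusted p up to 0.117). epcam differed by 2.30 without entpd5a+ library 3 and 3.91 without double-positive library 3, krt94 by -4.03 without entpd5a+ library 3. In the integrin list the number of rises became 0 without entpd5a+ library 2, 0 without double-positive library 2 and 1 without double-positive library 3, and the number of falls became 2 without entpd5a+ library 2, 3 without entpd5a+ library 3 and 3 without double-positive library 2. In the junction list the number of rises became 3 without entpd5a+ library 2, 5 without entpd5a+ library 3, 4 without double-positive library 1 and 3 without double-positive library 2, and the number of falls became 3 without entpd5a+ library 2.

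Vacuoles and caveolae are known from the inner notochord cells. Of 25 genes tested 4 fell and none rose with edgeR (9 lower and none higher at an unadjusted p under 0.05, 7 lower and none higher with DESeq2), with a median of -0.75. The caveolin gene cav3 stood at 316, 291 and 119.6 CPM in the double-positive and 15.5, 14.1 and 26.3 CPM in the entpd5a+ libraries and fell by 3.70 ± 0.59 (adjusted p = 0.00758). CAV2 stood at 285, 549 and 323 CPM and 89.6, 40.7 and 48.3 CPM and fell by 2.69 ± 0.44 (adjusted p = 0.00801), while CAV1 overlapped and differed by -0.11 ± 0.37 (adjusted p = 0.913). RAB32 (ENSDARG00000029036), a small GTPase of lysosome-related organelles, fell by 2.80 ± 0.52 (adjusted p = 0.0129), and ATP6V1H, a subunit of the vacuolar proton pump, fell by 1.24 ± 0.24 (adjusted p = 0.0164). The call of RAB32 (ENSDARG00000029036) was lost without entpd5a+ library 2 (adjusted p = 0.0607), that of ATP6V1H without entpd5a+ library 2 or double-positive library 2 (adjusted p up to 0.0689). In this vacuole list the number of falls became 2 without entpd5a+ library 2.

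Hedgehog ligand and carrier genes that were called fell with 1 exception, and the called genes that receive the signal rose. In this pathway a ligand is released with the help of SCUBE carriers, binds a patched receptor and turns on GLI factors, whose targets include GLI1, HHIP and the receptors themselves. Of 23 genes tested 4 rose and 6 fell, with a median of -0.04. DESeq2 called 8 higher and 8 lower. The ligand gene SHH (ENSDARG00000068567) stood at 1100.5, 1546 and 1239.6 CPM in the double-positive libraries and at 61.3, 56.7 and 128 CPM in the entpd5a+ libraries and fell by 3.98 ± 0.48 (adjusted p = 0.00326). The other SHH gene, SHH (ENSDARG00000038867), stood at 423, 862 and 536 CPM and 22.6, 12.1 and 34.6 CPM and fell by 4.72 ± 0.56 (adjusted p = 0.00326). The 2 Indian hedgehog genes went opposite ways. The gene ihhb stood at 678, 1182 and 1215 CPM and 56.9, 63.6 and 106 CPM and fell by 3.76 ± 0.48 (adjusted p = 0.00349), whereas ihha stood at 3.53, 2.86 and 8.02 CPM and 36.8, 122 and 40.4 CPM and rose by 3.78 ± 0.64 (adjusted p = 0.00962). All 3 carrier genes fell, SCUBE1 by 3.27 (adjusted p = 0.0103), SCUBE2 by 4.03 (adjusted p = 0.00333) and SCUBE3 by 2.22 (adjusted p = 0.0096). The SHH pair counts here and in the sheath list. Other lists share called genes as well, such as FMOD (ENSDARG00000044895) in the cartilage and tendon lists and col18a1a in the collagen and basement membrane lists. ihha differed by 3.00 without entpd5a+ library 2 and 4.37 without double-positive library 3.

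On the receiving side GLI1, 1 GLI2 gene and HHIP passed the test. GLI1 stood at 4.09, 0.52 and 3.29 CPM in double-positive and 29.2, 44.6 and 17.6 CPM in entpd5a+ libraries and rose by 3.53 ± 0.74 (adjusted p = 0.0212). GLI2 (ENSDARG00000025641) stood at 11.7, 2.99 and 21.2 CPM and 83.5, 209 and 134 CPM and rose by 3.57 ± 0.73 (adjusted p = 0.019). The decoy receptor gene HHIP stood at 3.02, 3.28 and 9.88 CPM and 192, 121 and 59.3 CPM and rose by 4.52 ± 0.80 (adjusted p = 0.0114). The entpd5a+ libraries lay above all double-positive libraries in these 3 genes. The receptor gene PTCH1 differed by 2.03 ± 0.59 (adjusted p = 0.075) without overlap. The other GLI2 gene and GLI3 did not pass the test. The call of GLI1 was lost without entpd5a+ library 2 (adjusted p = 0.0771), that of GLI2 (ENSDARG00000025641) without entpd5a+ library 2 or double-positive library 1 (adjusted p up to 0.0617), that of HHIP without double-positive library 2 (adjusted p = 0.0505). GLI2 (ENSDARG00000025641) differed by 4.28 without double-positive library 3, HHIP by 5.30 without double-positive library 3, PTCH1 by 2.62 (adjusted p = 0.0461) without double-positive library 3. Over the whole list the number of rises became 2 without entpd5a+ library 2 and 7 without double-positive library 3.

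Genes of BMP and TGF-beta signalling, which drives bone and cartilage formation, changed in both directions. Of 62 tested 16 rose and 8 fell, with a median of 0.14. DESeq2 called 19 higher and 13 lower, and a term for depth gave 17 higher and 15 lower. Among ligands BMP5 stood at 6.06, 3.25 and 7.80 CPM in the double-positive and 126, 109.7 and 149.8 CPM in the entpd5a+ libraries and rose by 4.49 ± 0.53 (adjusted p = 0.00326). BMP6 rose by 2.25 ± 0.42 (adjusted p = 0.014), and the joint ligand GDF5 went from 0.917, 0.989 and 1.27 to 38.0, 35.6 and 26.9 CPM and rose by 4.98 ± 1.06 (adjusted p = 0.0226). BMP3, an unusual ligand that opposes osteogenic BMPs, stood at 1434, 2384 and 2136 CPM and 289, 518 and 342 CPM and fell by 2.37 ± 0.55 (adjusted p = 0.0319). Among secreted inhibitors nog2, of the noggin family, stood at 394, 511 and 567 CPM and 51.0, 42.0 and 83.0 CPM and fell by 3.06 ± 0.54 (adjusted p = 0.011). SOST, which encodes the BMP and Wnt antagonist sclerostin, stood at 120.0, 299 and 153 CPM and 18.2, 7.13 and 13.8 CPM and fell by 3.87 ± 0.67 (adjusted p = 0.0108). Both inhibitors were far lower in every entpd5a+ library than in any double-positive library. The 2 follistatin genes, whose products bind activins, were opposed, as FST (ENSDARG00000057992) rose by 6.06 ± 1.15 (adjusted p = 0.0147) and FST (ENSDARG00000052846) fell by 3.35 ± 0.65 (adjusted p = 0.0153). The coreceptor gene TGFBR3 fell by 3.24 ± 0.37 (adjusted p = 0.00326) and the inhibitor of differentiation gene ID4, a BMP target, fell by 4.01 ± 0.50 (adjusted p = 0.00346). The calls of BMP6 and FST (ENSDARG00000052846) were lost without entpd5a+ library 2 or double-positive library 2 (adjusted p up to 0.0674), that of GDF5 without entpd5a+ library 2 or double-positive library 1, 2 or 3 (adjusted p up to 0.089), that of BMP3 without entpd5a+ library 1, 2 or 3 or double-positive library 2 or 3 (adjusted p up to 0.0974). The call of nog2 was lost without entpd5a+ library 2 (adjusted p = 0.0526), that of FST (ENSDARG00000057992) without double-positive library 2 (adjusted p = 0.0534). ID4 differed by -4.74 without entpd5a+ library 3. Over the BMP and TGF-beta list the number of rises became 3 without entpd5a+ library 2, 10 without double-positive library 1, 4 without double-positive library 2 and 8 without double-positive library 3, and the number of falls became 3 without entpd5a+ library 2 and 5 without double-positive library 2.

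**Figure D4:**
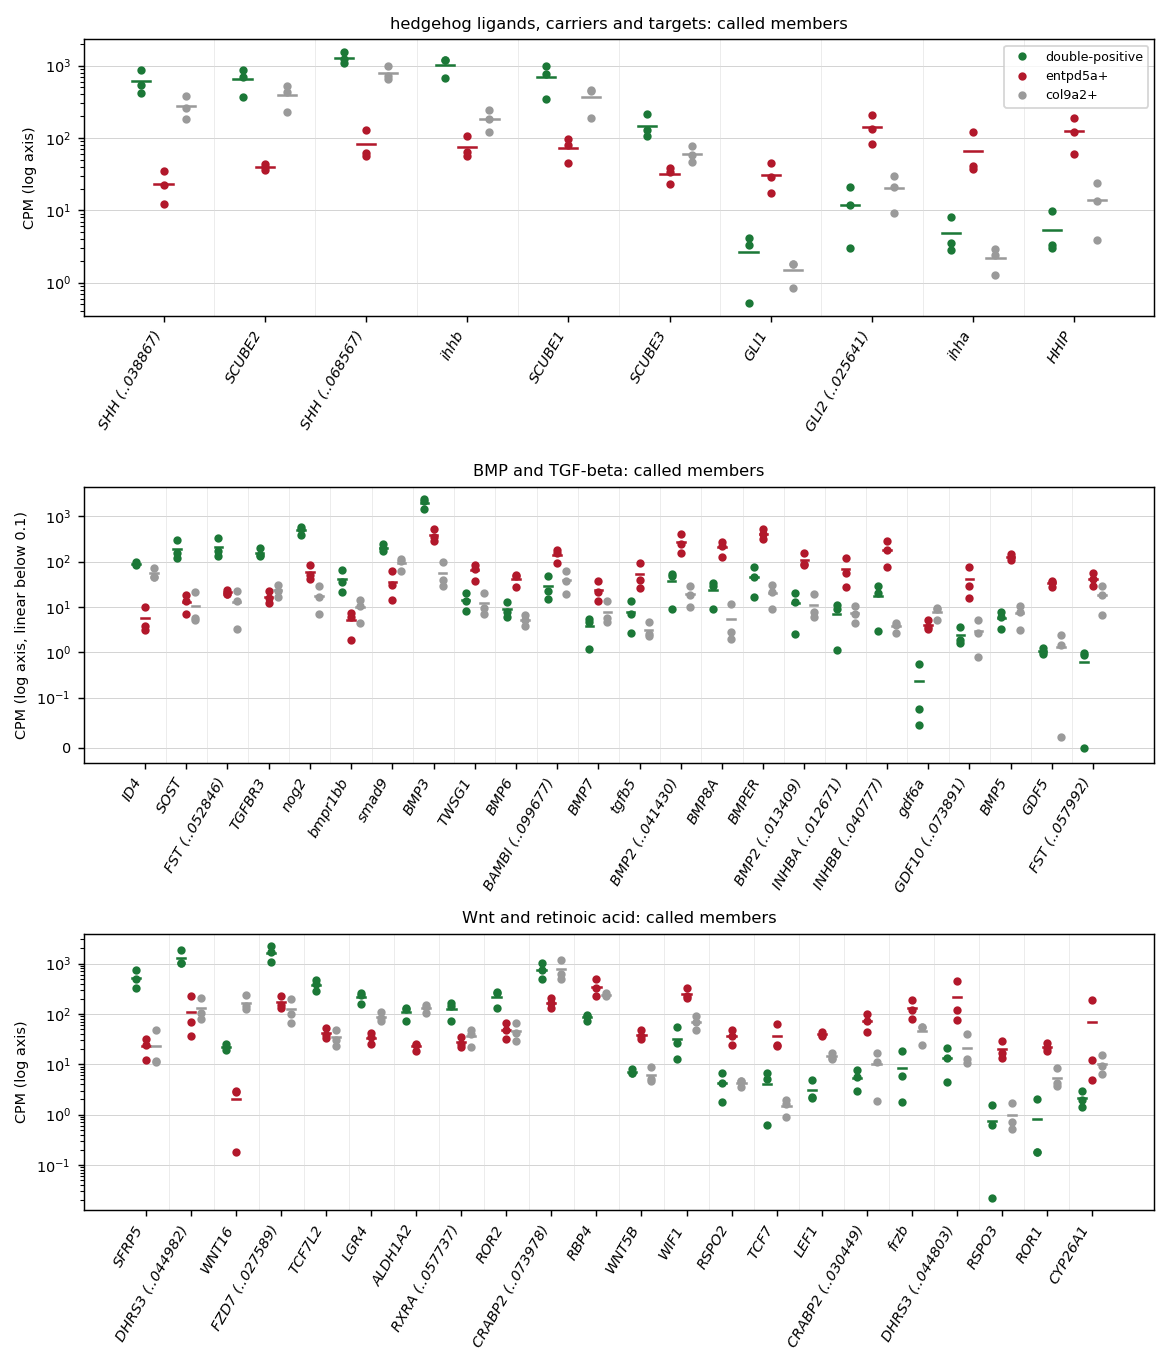
Levels in CPM of the called members of the hedgehog, BMP and TGF-beta, and Wnt and retinoic acid lists in each library, ordered from the largest fall to the largest rise. Points are libraries (green double-positive, red entpd5a+, grey col9a2+) and bars are means of 3 libraries, on log axes, the middle one linear below 0.1 CPM. The ligand and carrier genes SHH, SCUBE2 and ihhb lie on the left with falls, and GLI1, ihha and HHIP on the right with rises.

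Wnt genes changed in both directions. Of 52 tested 8 rose and 6 fell, with a median of 1.72. DESeq2 called 20 higher and 9 lower. LEF1, a nuclear factor of Wnt signalling, stood at 4.76, 2.21 and 2.11 CPM in the double-positive and 38.4, 43.8 and 36.2 CPM in the entpd5a+ libraries and rose by 3.70 ± 0.41 (adjusted p = 0.00326). TCF7L2, of the same family, stood at 392, 463 and 289 CPM and 51.9, 33.5 and 38.2 CPM and fell by 3.21 ± 0.40 (adjusted p = 0.00341). Neither gene overlapped between the populations. Among secreted antagonists SFRP5 stood at 491, 729.6 and 332 CPM and 31.4, 11.97 and 24.6 CPM and fell by 4.51 ± 0.72 (adjusted p = 0.00741), whereas WIF1 stood at 53.6, 13.0 and 27.0 CPM and 222, 319 and 209 CPM and rose by 3.00 ± 0.52 (adjusted p = 0.0108). The receptor gene FZD7 (ENSDARG00000027589) stood at 1068, 2183 and 1688 CPM and 132, 151 and 229.6 CPM and fell by 3.27 ± 0.54 (adjusted p = 0.00879), and LGR4, the receptor of R-spondins, fell by 2.69 ± 0.35 (adjusted p = 0.00369). The ligand gene WNT5B rose by 2.45 ± 0.37 (adjusted p = 0.00658) and receptor genes of the ROR family divided, as ROR1 rose by 4.77 ± 0.98 (adjusted p = 0.0195) and ROR2 fell by 2.19 ± 0.45 (adjusted p = 0.0196). The target gene AXIN2 overlapped and differed by 2.64 ± 0.96 (adjusted p = 0.15). The call of ROR1 was lost without entpd5a+ library 2 or double-positive library 2 (adjusted p up to 0.0584), that of ROR2 without entpd5a+ library 1 or 2 or double-positive library 2 (adjusted p up to 0.081). WIF1 differed by 3.64 without double-positive library 1, ROR1 by 6.93 without double-positive library 1, AXIN2 by 1.91 without entpd5a+ library 2 and 4.39 (adjusted p = 0.0256) without double-positive library 3. In the Wnt list the number of rises became 5 without entpd5a+ library 2.

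Retinoic acid genes changed in both directions. Of 30 tested 4 rose and 4 fell, with a median of 0.79. DESeq2 called 9 higher and 4 lower. ALDH1A2, the enzyme that makes retinoic acid, stood at 125, 129.6 and 72.6 CPM in the double-positive and 18.3, 24.0 and 25.5 CPM in the entpd5a+ libraries and fell by 2.27 ± 0.33 (adjusted p = 0.00557). CYP26A1, an enzyme that degrades it, stood at 1.41, 1.95 and 2.90 CPM and 11.8, 4.88 and 192 CPM and rose by 5.06 ± 1.25 (adjusted p = 0.0419), and entpd5a+ library 3 was far above all others. CYP26B1, another such enzyme, overlapped and differed by -0.25 ± 0.62 (adjusted p = 0.883). The retinal reductase genes DHRS3 (ENSDARG00000044803) and DHRS3 (ENSDARG00000044982) were opposed. The first stood at 21.3, 4.53 and 13.2 CPM and 76.5, 119.9 and 443 CPM and rose by 4.04 ± 0.88 (adjusted p = 0.0253). The second stood at 1045, 1865 and 1022 CPM and 69.0, 36.1 and 222 CPM and fell by 3.59 ± 0.73 (adjusted p = 0.0188). Binding protein genes were opposed as well, as CRABP2 (ENSDARG00000030449) rose by 3.74 ± 0.74 (adjusted p = 0.0175) and CRABP2 (ENSDARG00000073978) fell by 2.18 ± 0.47 (adjusted p = 0.0233). The call of CYP26A1 was lost without entpd5a+ library 3 or double-positive library 1, 2 or 3 (adjusted p up to 0.142), that of DHRS3 (ENSDARG00000044803) without entpd5a+ library 3 or double-positive library 2 or 3 (adjusted p up to 0.0844), those of DHRS3 (ENSDARG00000044982) and CRABP2 (ENSDARG00000073978) without entpd5a+ library 1 or 2 or double-positive library 2 (adjusted p up to 0.101). The call of CRABP2 (ENSDARG00000030449) was lost without double-positive library 1 or 2 (adjusted p up to 0.0714). CYP26A1 differed by 1.97 without entpd5a+ library 3, CYP26B1 by -1.49 without entpd5a+ library 3, DHRS3 (ENSDARG00000044803) by 2.90 without entpd5a+ library 3. DHRS3 (ENSDARG00000044982) differed by -4.67 without entpd5a+ library 3. Over the retinoic acid list the number of rises became 2 without entpd5a+ library 3, 1 without double-positive library 2 and 2 without double-positive library 3, and the number of falls became 2 without entpd5a+ library 1, 1 without entpd5a+ library 2 and 1 without double-positive library 2.

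In the FGF list 5 of 34 genes rose and 1 fell, and DESeq2 called 11 higher and 3 lower. Over all genes edgeR called 3.06% higher and 3.45% lower. The receptor gene fgfr4 stood at 66.0, 19.3 and 60.9 CPM in the double-positive and 251, 657 and 231 CPM in the entpd5a+ libraries and rose by 2.96 ± 0.57 (adjusted p = 0.0152). FGFR3, a receptor that restrains cartilage growth, stood at 1244, 1732 and 1774 CPM and 385, 659.6 and 535 CPM and fell by 1.59 ± 0.39 (adjusted p = 0.039). In neither gene did the groups overlap. Among Notch genes none of 33 passed the edgeR test, while 11 were higher and 2 lower at an unadjusted p under 0.05, and DESeq2 called 10 higher and 1 lower. The Notch targets HEY1 and HEY2 were highest in entpd5a+ library 3, at 224 and 51.1 CPM. The call of FGFR3 was lost without any 1 of the 6 libraries (adjusted p up to 0.123). fgfr4 differed by 2.31 without entpd5a+ library 2. In the FGF list the number of rises became 3 without entpd5a+ library 1, 2 without entpd5a+ library 2, 3 without entpd5a+ library 3, 3 without double-positive library 1 and 2 without double-positive library 2.

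Hox genes, whose paralog groups mark position along the body axis, rose in 10 of 46 cases and fell in 2. Of all genes 3.06% rose and 3.45% fell. The median of the Hox list was 1.07, and DESeq2 called 17 of its genes higher and 3 lower. The rises include 4 of the most posterior group. HOXB13 stood at 3.27, 3.10 and 5.87 CPM in the double-positive libraries and at 39.1, 36.6 and 31.1 CPM in the entpd5a+ libraries and rose by 3.12 ± 0.45 (adjusted p = 0.00541). HOXC13 stood at 7.85, 2.37 and 8.46 CPM and 71.0, 67.4 and 26.8 CPM and rose by 3.14 ± 0.55 (adjusted p = 0.011), and hoxa13a and hoxa13b rose by 3.93 (adjusted p = 0.0152) and 3.14 (adjusted p = 0.015). The entpd5a+ libraries lay above the double-positive libraries in all 4. The falls were of the more anterior genes HOXB5 (ENSDARG00000013057), by 2.30 (adjusted p = 0.014), and HOXB2, by 2.35 (adjusted p = 0.0205). Anterior genes were also among the rises, as HOXA3 rose by 2.38 (adjusted p = 0.0355). The calls of hoxa13b and HOXB2 were lost without entpd5a+ library 2 or double-positive library 2 (adjusted p up to 0.0786), that of HOXB5 (ENSDARG00000013057) without double-positive library 2 (adjusted p = 0.0517), that of HOXA3 without entpd5a+ library 2 or 3 or double-positive library 1 or 2 (adjusted p up to 0.115). HOXA3 differed by 3.04 without double-positive library 3. Among Hox genes the number of rises became 5 without entpd5a+ library 2 and 4 without double-positive library 2.

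The largest rises and falls were ranked among called genes with at least 20 CPM on average in the higher population. Genes with only a clone name or ID, and genes that share a symbol, were left out of this ranking. SHH (ENSDARG00000038867), which fell by 4.72, is thus not in it. The largest rise so ranked was that of CRHBP, the binding protein of corticotropin-releasing hormone. CRHBP stood at 0, 0.156 and 0 CPM in the double-positive and 46.5, 2.98 and 13.2 CPM in the entpd5a+ libraries. It rose by 8.78 ± 1.65 (adjusted p = 0.014) in the fit, and its double-positive libraries together held 6 counts. ASPN followed, and the next were ANGPTL5, an angiopoietin-like secreted protein gene, and CYP26A1. STEAP4, a metal-reducing membrane enzyme gene, stood at 2.50, 1.22 and 10.3 CPM and 99.8, 59.7 and 284 CPM and rose by 4.98 ± 0.90 (adjusted p = 0.0123). The gelatinase gene MMP9 stood at 0.201, 2.99 and 4.78 CPM and 31.8, 53.2 and 135 CPM and rose by 4.78 ± 1.03 (adjusted p = 0.0233). The thrombospondin gene thbs2b, a matricellular protein gene, stood at 1.03, 3.12 and 1.33 CPM and 67.5, 45.5 and 34.1 CPM and rose by 4.75 ± 0.59 (adjusted p = 0.00349). Also among the 12 largest rises were GDF5, ROR1, HHIP, the hexosamine enzyme gene GFPT2, which rose by 4.59 (adjusted p = 0.0352), and efcc1, which rose by 4.55 (adjusted p = 0.02). The call of ANGPTL5 was lost without double-positive library 2 (adjusted p = 0.0891), that of MMP9 without entpd5a+ library 2 or 3 or double-positive library 2 (adjusted p up to 0.0867), that of GFPT2 without entpd5a+ library 3 or double-positive library 1, 2 or 3 (adjusted p up to 0.118). The call of efcc1 was lost without entpd5a+ library 2 or double-positive library 1 or 2 (adjusted p up to 0.0802). CRHBP differed by 7.36 without entpd5a+ library 1 and 13.30 without double-positive library 2 and 8.08 without double-positive library 3, ANGPTL5 by 4.70 without entpd5a+ library 1 and 7.41 without double-positive library 3, STEAP4 by 4.08 without entpd5a+ library 3 and 6.31 without double-positive library 3. MMP9 differed by 3.997 without entpd5a+ library 3 and 5.53 without double-positive library 3, thbs2b by 5.38 without double-positive library 2, GFPT2 by 2.44 without entpd5a+ library 3. Without double-positive library 2 no count of CRHBP was left in that population, so the fitted value there depends on the prior count and is no bound.

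The largest falls, ranked with the same genes left out, mixed sheath matrix with receptors and cell surface genes. PRKG2, a cyclic GMP-dependent kinase gene that regulates cartilage growth in mammals, stood at 13.5, 26.5 and 20.6 CPM in the double-positive libraries and at 0, 0.0462 and 0.653 CPM in the entpd5a+ libraries and fell by 6.41 ± 1.63 (adjusted p = 0.0469). The relaxin-family peptide receptor gene rxfp3 stood at 16.4, 29.2 and 17.3 CPM and 0.428, 0.0462 and 0.926 CPM and fell by 5.49 ± 1.03 (adjusted p = 0.014). C1QTNF12, a secreted protein gene of the C1q and TNF family, stood at 729, 1287 and 993 CPM and 42.8, 25.8 and 45.2 CPM and fell by 4.72 ± 0.52 (adjusted p = 0.00326). All double-positive libraries lay well above all entpd5a+ libraries in these genes. NRCAM, a neuronal adhesion molecule gene, fell by 4.68 ± 0.52 (adjusted p = 0.00326). GJB6, a gap junction connexin gene, stood at 614, 1594 and 1011 CPM and 31.7, 21.1 and 92.8 CPM and fell by 4.47 ± 0.76 (adjusted p = 0.00987). The survivin-family gene birc5b, whose mammalian relative acts in mitosis, and haus7, a spindle augmin subunit gene, fell by 5.09 (adjusted p = 0.0239) and 4.74 (adjusted p = 0.00763). None of 43 cell cycle genes was called by edgeR in either direction (7 higher and none lower at an unadjusted p under 0.05, 4 higher and none lower with DESeq2). Of all 19039 genes 3944 had an unadjusted p under 0.05, and DESeq2 called 1764 higher. Also among the 12 largest falls so ranked were optc, cmn, SFRP5, CBLN4, which fell by 5.03 (adjusted p = 0.0368), and AGTRAP, which fell by 4.51 (adjusted p = 0.00658). The call of PRKG2 was lost without entpd5a+ library 1 or 2 or double-positive library 1, 2 or 3 (adjusted p up to 0.146), that of birc5b without entpd5a+ library 2 or 3 or double-positive library 2 (adjusted p up to 0.081), that of CBLN4 without entpd5a+ library 2 or double-positive library 1 or 2 (adjusted p up to 0.131). PRKG2 differed by -9.40 without entpd5a+ library 3, rxfp3 by -6.56 without entpd5a+ library 3, GJB6 by -5.37 without entpd5a+ library 3. birc5b differed by -6.29 without entpd5a+ library 1 and -4.34 without double-positive library 2, haus7 by -5.36 without entpd5a+ library 1, CBLN4 by -6.97 without entpd5a+ library 3. AGTRAP differed by -3.92 without double-positive library 2.

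Markers of other cell types that the sort could hold were checked last. In the osteoclast and leukocyte list 1 of 28 genes rose and none fell with edgeR (6 higher and 1 lower at an unadjusted p under 0.05, 6 higher and none lower with DESeq2). Over all genes edgeR called 3.06% higher and 3.45% lower. The riser of the list was tnfrsf11a, the receptor RANK, at 81.6, 33.9 and 116 CPM in the double-positive and 469, 857 and 958 CPM in the entpd5a+ libraries, and it rose by 3.30 ± 0.60 (adjusted p = 0.0122). Summed over 8 leukocyte and osteoclast markers the double-positive libraries held 30.0, 5.75 and 14.9 CPM and the entpd5a+ libraries 65.5, 61.0 and 56.0 CPM, without overlap. The col9a2+ libraries held 51.1, 47.9 and 40.4 CPM of these markers, above every double-positive and below every entpd5a+ library. The osteoclast protease gene CTSK made up most of the sum in entpd5a+ cells, at 20.04, 2.39 and 6.72 CPM and 54.3, 46.2 and 33.1 CPM, without overlap and with a difference of 2.196 ± 0.64 (adjusted p = 0.0795). The leukocyte gene CORO1A stood at 1.45, 1.72 and 5.15 CPM and 8.06, 8.66 and 13.8 CPM, also without overlap, and differed by 1.87 ± 0.60 (adjusted p = 0.107). The other 6 markers, among them ACP5, csf1ra and ptprc, overlapped between the populations. The part of such cells in the differences was not tested. Among 40 epidermis genes 6 rose and 5 fell, with a median of 2.22, and DESeq2 called 18 higher and 7 lower. The epithelial adhesion genes epcam and cdh1 stood at 7.18, 6.37 and 27.1 and 1.59, 4.50 and 5.69 CPM in double-positive libraries and at 73.2, 60.8 and 172 and 18.8, 21.1 and 43.1 CPM in entpd5a+ libraries. They rose by 2.91 (adjusted p = 0.0337) and 2.81 (adjusted p = 0.0126). In the col9a2+ libraries epcam and cdh1 lay higher on average, at 331.2 and 45.5 CPM against 101.9 and 27.6 CPM in the entpd5a+ libraries. The keratins krt4 and krt5 had the opposite order of means, and neither passed the test. The call of epcam was lost without entpd5a+ library 2 or 3 or double-positive library 1 or 2 (adjusted p up to 0.117). CTSK differed by 3.28 (adjusted p = 0.0145) without double-positive library 1, CORO1A by 2.68 (adjusted p = 0.035) without double-positive library 3, epcam by 2.30 without entpd5a+ library 3 and 3.91 without double-positive library 3. In the epidermis list the number of rises became 1 without entpd5a+ library 2, 3 without entpd5a+ library 3, 2 without double-positive library 1, 1 without double-positive library 2 and 18 without double-positive library 3.

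Endothelial transcripts varied most among the double-positive libraries. Summed over 6 markers the double-positive libraries held 284, 3.43 and 13.0 CPM and the entpd5a+ libraries 59.7, 75.7 and 93.8 CPM. FLI1 made up most of the entpd5a+ sums, at 48.0, 67.1 and 63.4 CPM, and SOX7 reached 21.7 CPM. Of the other markers, kdrl, cdh5, TIE1 and EGFL7, none exceeded 5.38 CPM in an entpd5a+ library. Double-positive library 1 was far above the other libraries of its group, and of 27 endothelial genes 1 fell, the adhesion gene ESAM by 2.32 (adjusted p = 0.00418), and none rose (2 lower and 4 higher at an unadjusted p under 0.05, 1 lower and 3 higher with DESeq2). Over all genes edgeR called 3.06% higher and 3.45% lower. No muscle gene of 24 was called by edgeR (5 higher and none lower at an unadjusted p under 0.05, 3 higher and none lower with DESeq2), although the summed muscle markers reached 134, 21.97 and 372 CPM in the entpd5a+ libraries, with library 3 the highest. Among all 19039 genes the unadjusted p lay under 0.05 in 3944, and DESeq2 called 1764 higher. In the pigment list 2 of 19 genes rose, among them pmela at 0.358, 0.156 and 0.723 CPM and 14.9, 3.13 and 2.75 CPM, which rose by 4.05 ± 0.96 (adjusted p = 0.0355). The melanin synthesis gene DCT, which did not pass the count filter, had no count in the double-positive libraries and 17.0, 0.0578 and 0 CPM among the entpd5a+ libraries. Summed over 8 pigment cell markers the entpd5a+ libraries held 67.7, 5.82 and 15.9 CPM, with library 1 the highest, and the double-positive libraries 6.24, 6.63 and 2.92 CPM. The part of other cell types in the remaining differences was not tested. The direction of every call among the 185 called genes named by rule was the same without each library in turn. This was largely fixed in advance, since the populations did not overlap in any called gene. The call of pmela was lost without entpd5a+ library 1 or 2 or double-positive library 1 or 2 (adjusted p up to 0.158). pmela differed by 2.82 without entpd5a+ library 1 and 4.74 without double-positive library 3. The counts of the remaining lists stand beside 3.06% of all genes higher and 3.45% lower with edgeR. Of 14 mural genes 1 rose and 0 fell, of 12 erythroid genes 0 rose and 1 fell, and of 26 neural and glial genes 1 rose and 2 fell. Of mural genes DESeq2 called 5 higher and 1 lower, of erythroid genes DESeq2 called none higher and 1 lower and of neural and glial genes DESeq2 called 5 higher and 2 lower. Of 43 immediate early and heat shock genes 1 rose, of 22 keratins 3 rose and 2 fell, and of 29 genes of hyaluronan and large proteoglycans 2 rose and 3 fell. Of the keratins DESeq2 called 9 higher and 5 lower, and of the hyaluronan list DESeq2 called 12 higher and 4 lower. Among keratins the number of rises became 1 without entpd5a+ library 2, 1 without entpd5a+ library 3, 1 without double-positive library 1, 1 without double-positive library 2 and 8 without double-positive library 3. In the hyaluronan list 4 genes rose without entpd5a+ library 1 or double-positive library 3. No mural gene rose without entpd5a+ library 2 or 3 or double-positive library 2, no immediate early or heat shock gene without any single library other than entpd5a+ library 1, and no neural or glial gene was called without entpd5a+ library 2 or double-positive library 2.

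**Figure D5:**
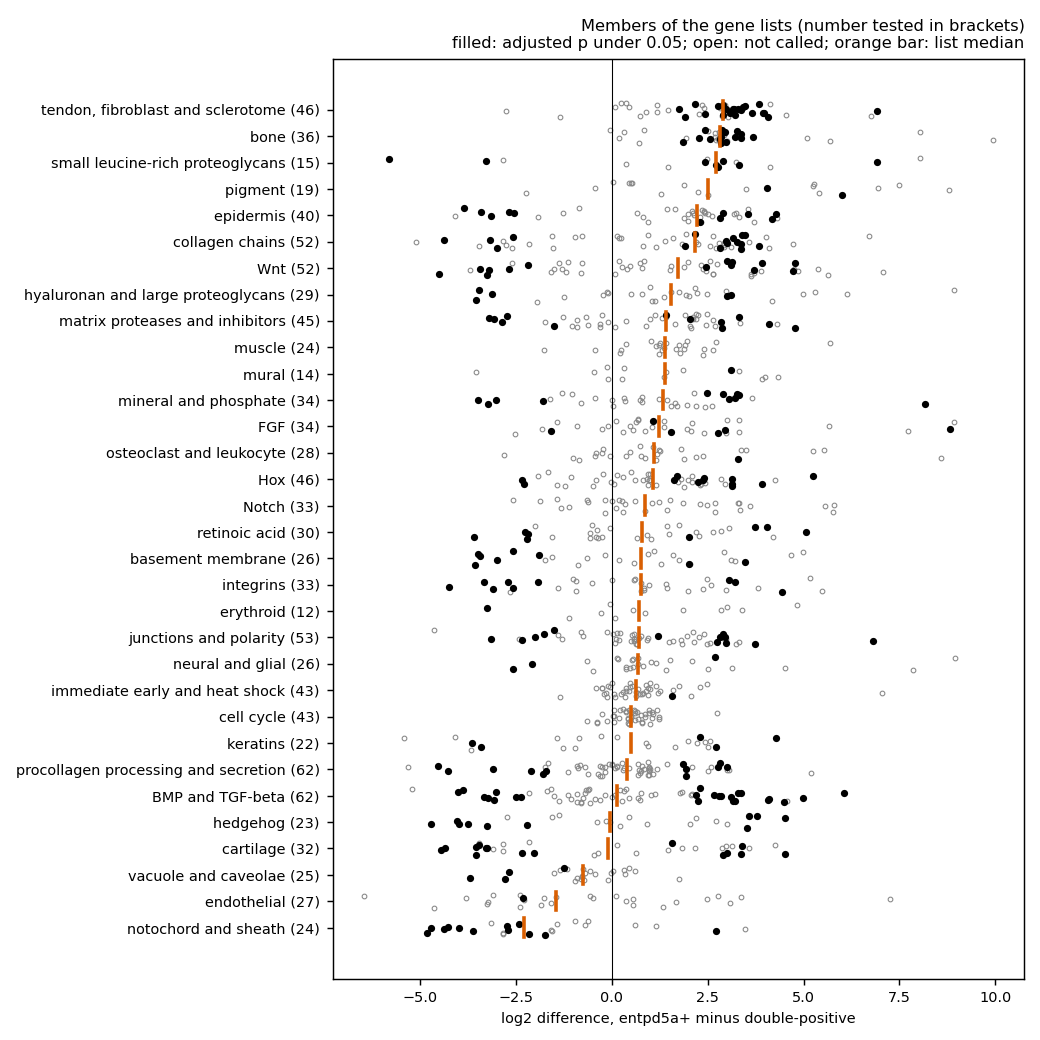
Log2 difference between entpd5a+ and double-positive cells of every tested member of the 32 gene lists, ordered by the list median (orange bar), with the number tested in brackets. Filled points passed an adjusted p under 0.05 and open points did not. The tendon, fibroblast and sclerotome list and the bone list have the highest medians, 2.91 and 2.83, and the notochord and sheath list the lowest, -2.29.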

How the data were processed

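RNA was sequenced from sorted cells in 9 libraries, 3 for each of 3 populations taken from the titles. The authors deposited a count per gene and library, and per the submitters' processing notes reads were handled with HISAT2 and HTSeq on GRCz10. Versions, the annotation release and the strand setting are not given in the sources used here, so overlapping and antisense genes and close paralogs are uncertain. Every row of the deposited files named a gene ID, so totals are of counts assigned to genes. Counts were tested with edgeR 4.0.16 in R 4.3.3 (TMM factors, filterByExpr, quasi-likelihood F test, two-sided, all 9 libraries in the fit with 6 residual degrees of freedom), and p values were adjusted by Benjamini-Hochberg over 19039 genes and called under 0.05. DESeq2 1.42.0 and other scalings, filters and sets of libraries were alternatives. On simulated data the test recovered 2%, 18%, 72% and 94% of genes changed 2, 4, 8 and 16-fold in this comparison, from 200 changed among 18847 tested, with 2 false calls. The changed genes were drawn only from genes above a minimum mean CPM, so recovery of weakly expressed genes was not measured. Gene names came from a reference gene table, which named 26433 of the IDs.

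The gene lists, markers and tests were chosen with earlier results of these data known. Named by rule are the sort genes, all markers and up to 6 called members of each list by adjusted p. Any measured member of the sheath, bone, mineral, cartilage and tendon lists is included too. So are the 12 largest rises and falls of called genes with a mean of 20 CPM or more in either population. Genes with only a clone name or ID, and genes that share a symbol, were left out of those 12. Other called list members, and uncalled members of other lists such as CAV1, PTCH1, AXIN2, CYP26B1, HEY1 and HEY2, were chosen after their values were seen. Sequences are not used here, and some markers and list members are counted but not reported by name.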

Additional observations from a re-analysis of the deposited data

How the results depend on the processing

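Every gene called between entpd5a+ and double-positive cells kept its direction in each alternative in which it was tested. The populations did not overlap in any called gene, so leaving out libraries could hardly reverse a direction. The count of calls changed more than the directions. With the 6 libraries of the pair alone 758 genes were called, 320 of them higher. DESeq2 called 2874, with 1764 higher and 1110 lower. The deeper libraries alone called 0, with 0 higher and 0 lower in the edgeR test and 1 residual degree of freedom, against 3330 at an unadjusted p under 0.05. The shallower libraries alone called 455, with 175 higher and 280 lower. Leaving out 1 library gave 525 to 1064 calls, 221 to 574 higher and 293 to 550 lower, and left 1 population with 2 libraries. A term for depth gave 1795 calls and kept 1188 of the 1240. Whether the replicate numbers pair the samples is not given. Libraries of the same number correlated at 0.13, -0.10 and 0.15 in their deviations from the population means. Entpd5a+ library 1 correlated at 0.15 with double-positive library 2 and at 0.13 with library 1. The highest value, 0.20, was that of entpd5a+ library 2 with double-positive library 3, both of them deeper libraries. These values do not settle the pairing. The fit with the replicate number as a block called 1684. Of the named genes, uncalled entpd5b reversed to -0.22 in the deeper libraries and to -0.38 without entpd5a+ library 1 (-0.38 to 0.50 over the libraries left out), and uncalled MKX to -0.17 in the deeper libraries. Uncalled CYP26B1 (-0.25) reversed to 0.0949 in the deeper libraries and ranged from -1.49 to 0.18 with 1 library left out. Uncalled CAV1 (-0.11) reversed to 0.0258 with a mean of at least 10 CPM, 0.0148 with a depth term, 0.0204 in the deeper and 0.0836 in the shallower libraries, and ranged from -0.29 to 0.0793 with 1 library left out. The cause was not tested. With 3 libraries a population, most simulated differences of 4-fold or less were missed, as 2% of 2-fold and 18% of 4-fold changes were recovered. That simulation changed 200 of 18847 genes, fewer than were called here, and left the weakly expressed genes unchanged. Recovery in these data may therefore differ.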
